A study of Oryzias latipes with 2 samples.

Results

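The 4 genes described here belong to the Slc2 family of sugar and urate carriers and were followed across the cell classes of medaka skin and scales. They are slc2a15a (ENSORLG00000000924), slc2a15b (ENSORLG00000012848), slc2a11b (ENSORLG00000008054) and SLC2A9 (ENSORLG00000008309). They were chosen by symbol among the 23601 features of the deposited matrices, which hold 13 other Slc2 genes, 17 in all. Cells came from adult male and female wild-type medaka (Oryzias latipes) of the HdrR strain, with the Southern phenotype. Skin and scales were dissociated at 37 °C for 1 h and pigment cells were enriched by flow sorting on GFP and mCherry. How the gates were set is not stated in the labels. Single cells were profiled with 10x droplet libraries of transcript 3′ ends in 2 runs, which form 1 group with the same labels. Whether different fish supplied the 2 runs is not stated, so the spread between them may be technical.

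Slc2 proteins, also called GLUTs, carry hexoses and related small solutes across membranes without using energy directly. In humans SLC2A9 carries urate. In medaka, slc2a15b and slc2a11b are the genes behind the pigment mutants leucophore free and white leucophore, and slc2a15 genes are known from fish and not from humans. Fish skin holds white leucophores, yellow xanthophores, reflective iridophores and black melanophores, and purines such as urate and guanine are among the pigments that make white and reflective cells.

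Counts of unique molecular identifiers (UMIs), 1 per captured transcript, totalled 25236411 in run 1 and 6946744 in run 2. After filtering, 4347 cells of run 1 and 556 cells of run 2 remained, with medians of 4145 and 10198 UMIs per cell, and 0 barcodes occurred in both runs. Cells were clustered with the Slc2 genes held out, and 4 pigment classes were taken by their class genes. These class genes are also on the marker lists, so part of each count of markers met was set by that choice. KIRREL3+ cells (25 in run 1 and 217 in run 2) met 8 of 8 leucophore markers. Cells with scarb1 and sox5 (2222 and 4) formed 6 clusters, which met 7 or 8 of 8 xanthophore markers. One of the 6, cluster 0, is not named a cell type, because uraha and gch2 of the leucophore list were among its 10 leading genes. GPNMB+ pnp4a+ cells (29 and 1) met 7 of 7 iridophore markers. Those of run 1 also held sox5, in 79.3% of cells at 851 CPM, beside 830 CPM in scarb1+ sox5+ cells of run 1. The class genes of the single cell of run 2 go against its class, with 0 UMIs of pnp4a, 1 of GPNMB and 12 of KIRREL3, so results on this class rest on the 29 cells of run 1. The pmela+ class was cut from pigment clusters as cells with at least 3 pmela UMIs. It held 2 and 8 cells, all of them in scarb1+ sox5+ clusters 3 and 6, and only 2 other pigment cells held 1 or 2 pmela UMIs. The pigment classes are thus split unevenly between the runs, and only the KIRREL3+ class has 10 or more cells in both.

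The pigment classes differed in which of these transporters they held. KIRREL3+ cells held slc2a15b, with slc2a11b at a lower level than in scarb1+ sox5+ cells. Cells with scarb1 and sox5 held both genes at high levels. Both classes also held slc2a15a, at a lower level than in GPNMB+ pnp4a+ cells. GPNMB+ pnp4a+ cells held slc2a15a and SLC2A9, and 6 of the 29 in run 1 also held slc2a15b. Of the 10 pmela+ cells, 6 held slc2a11b and 3 held slc2a15a, all of them in run 2. Levels are given as CPM, the UMIs of a gene in the sum of a class scaled to a common total, with exact 95% Poisson intervals that cover counting error only. Levels of different genes are not compared with each other, since capture at the 3′ end differs between genes.

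**Figure D1:**
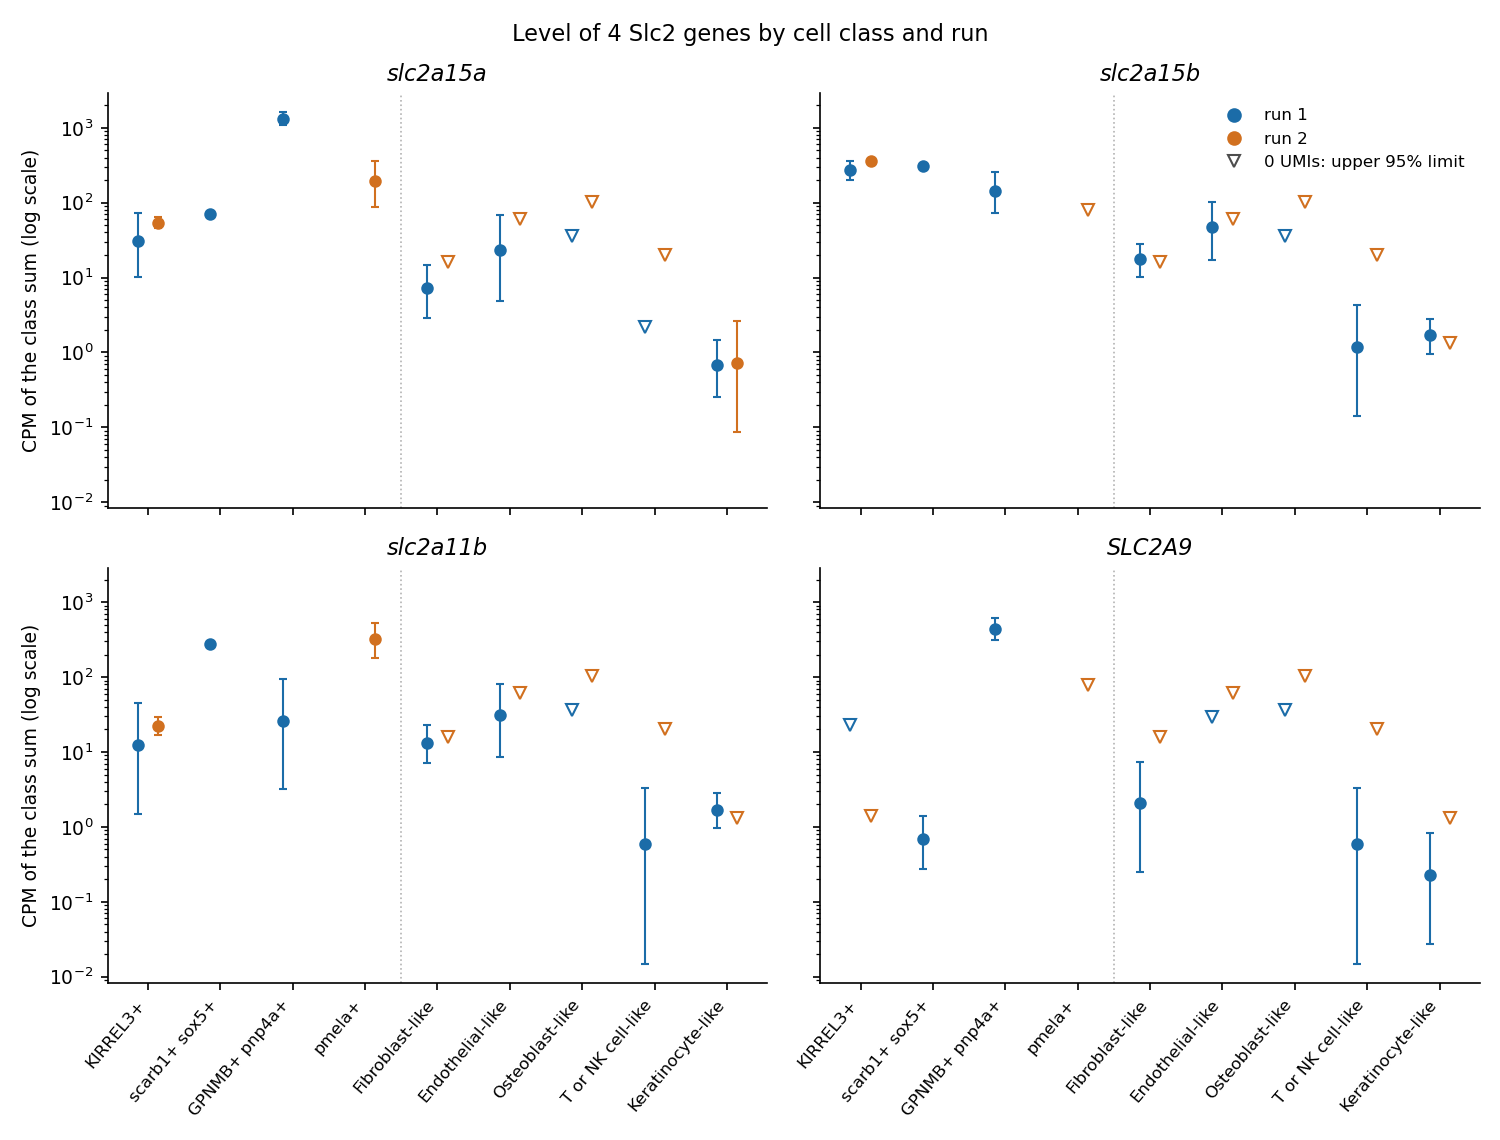
CPM (log scale) of each gene in the class sums, with run 1 in blue, run 2 in orange and exact 95% Poisson intervals. Open triangles are upper limits of sums with 0 UMIs, and sums of under 5 cells are left out. SLC2A9 stood at 445 CPM in GPNMB+ pnp4a+ cells and at 0 in KIRREL3+ cells, while slc2a15b stood at 272 to 355 CPM in KIRREL3+ and scarb1+ sox5+ cells.

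The gene slc2a15b stood at 272 CPM (95% interval 198 to 366) in KIRREL3+ cells of run 1 and at 355 CPM (333 to 379) in those of run 2, a mean of 314 ± 58.7 CPM (SD, n = 2 runs). Its level in scarb1+ sox5+ cells of run 1 was 312 CPM (301 to 323). GPNMB+ pnp4a+ cells of run 1 held 144 CPM (71.9 to 258), from 11 UMIs in 6 of 29 cells. The 8 pmela+ cells of run 2 held 0 slc2a15b UMIs, and 3 of these cells had only 1589 to 2016 UMIs in all. The upper 95% limit of their sum was 78.8 CPM, under the interval of scarb1+ sox5+ cells. That limit covers counting error only and rests on 8 cells. Keratinocyte-like cells held 1.71 CPM in run 1 and 0 UMIs in run 2. The scarb1+ sox5+ interval of run 1 overlapped that of KIRREL3+ cells of run 1 and lay under that of run 2. The levels of both classes lay above those of the other classes of 10 or more cells. The interval of GPNMB+ pnp4a+ cells reached that of KIRREL3+ cells of run 1. Within run 1, the ratio of KIRREL3+ to scarb1+ sox5+ cells was 0.873 (0.633 to 1.17), an interval that holds equal levels. Set against keratinocyte-like cells, slc2a15b was 160-fold higher in KIRREL3+ cells of run 1 (87.1 to 309) and at least 328-fold higher in those of run 2, where the bound takes 3 UMIs in the keratinocyte-like sum.

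The gene slc2a11b separated these classes. It stood at 12.4 CPM (1.5 to 44.7, from 2 UMIs) in KIRREL3+ cells of run 1 and at 22.5 CPM (17.1 to 29.0) in those of run 2. In scarb1+ sox5+ cells of run 1 it stood at 276 CPM (266 to 286), and the 4 such cells of run 2 held 338 CPM (169 to 605). The intervals of the classes did not overlap in run 1, where the ratio of KIRREL3+ to scarb1+ sox5+ cells was 0.0449 (0.00543 to 0.162). Of the 4 genes, slc2a11b alone was past 4-fold between these classes, lower in KIRREL3+ cells, as were 3.14% of the 12467 features compared, and 3.22% were past 4-fold higher. GPNMB+ pnp4a+ cells of run 1 held 2 slc2a11b UMIs, both in 1 of 29 cells. In pmela+ cells of run 2 it stood at 320 CPM (179 to 528), from 15 UMIs in 6 of 8 cells.

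The gene slc2a15a was highest in GPNMB+ pnp4a+ cells. It stood there at 1322 CPM (1077 to 1607), with at least 1 UMI in all 29 cells of run 1. The cell of run 2 that lacked pnp4a held 7 slc2a15a UMIs, which is not counted as support. Counts per cell in run 1 ran from 1 to 8 UMIs with a median of 3. The KIRREL3+ class held 30.9 CPM (10.0 to 72.2) in run 1 and 54.1 CPM (45.6 to 63.8) in run 2, and scarb1+ sox5+ cells of run 1 held 69.8 CPM (64.8 to 75.1). These classes did not reach the interval of the GPNMB+ pnp4a+ cells. Within run 1 the GPNMB+ pnp4a+ level was 18.9-fold that of scarb1+ sox5+ cells (15.2 to 23.3) and 42.7-fold that of KIRREL3+ cells (17.7 to 134). The ratio of KIRREL3+ to scarb1+ sox5+ cells was 0.443 (0.143 to 1.04), which holds equal levels. In pmela+ cells of run 2, slc2a15a stood at 192 CPM (87.9 to 365), from 9 UMIs in 3 of 8 cells.

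SLC2A9 was found almost only in GPNMB+ pnp4a+ cells among the pigment classes. Its level there was 445 CPM in run 1 (308 to 622), from 34 UMIs in 17 of 29 cells. The cell of run 2 that lacked pnp4a held 3 UMIs. KIRREL3+ cells held 0 UMIs in 25 and 217 cells, which, with 3 cells taken as the limit of a count of 0, allows up to 12% and 1.38% of cells with an SLC2A9 UMI. This limits detection, not the share of cells that express the gene. Only 7 of 2222 scarb1+ sox5+ cells of run 1 held SLC2A9, each with 1 UMI. That share, 0.315%, compares with 0.221% of keratinocyte-like cells of run 1, at median depths of 4348 and 8365 UMIs. The ratio of their levels was 2.98 (0.568 to 29.4), an interval that holds equal levels, and the part of free RNA was not tested. The GPNMB+ pnp4a+ level was 656-fold that of scarb1+ sox5+ cells (286 to 1752) and at least 24.0-fold that of KIRREL3+ cells, with 3 UMIs as the floor of the KIRREL3+ sum. Between GPNMB+ pnp4a+ and scarb1+ sox5+ cells, slc2a15a and SLC2A9 were past 4-fold higher, as were 4.37% of 12484 features, and slc2a11b past 4-fold lower, as were 1.92%. Against KIRREL3+ cells the same pair was past 4-fold higher, as were 12.7% of 2803 features, and 0 members were past 4-fold lower, as were 9.13%. These comparisons rest on 1 sum a class and have no replicate check.

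Set against keratinocyte-like cells of the same run, the pigment classes held 2 or 3 of the 4 members past 4-fold higher and 0 past 4-fold lower. In KIRREL3+ cells they were slc2a15b and slc2a15a in run 1, as were 13.1% of features higher and 6.52% lower, with slc2a11b added in run 2, as were 28.2% higher and 13.9% lower. In scarb1+ sox5+ cells of run 1 they were slc2a15a, slc2a15b and slc2a11b, as were 28.7% of features higher and 15.3% lower. In GPNMB+ pnp4a+ cells of run 1 they were slc2a15a, slc2a15b and SLC2A9, as were 10.8% higher and 3.94% lower. The ratio for slc2a15a ran from 45.3 (10.9 to 178) in KIRREL3+ cells through 102 (46.8 to 280) in scarb1+ sox5+ cells to 1937 (860 to 5403) in GPNMB+ pnp4a+ cells of run 1.

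The share of each gene among the Slc2 UMIs of a class describes what was captured there and is compared only between classes, since capture differs between genes. Of 55 Slc2 UMIs in KIRREL3+ cells of run 1, slc2a15b made up 80% (95% binomial interval 67.0 to 89.6), and of 1176 in run 2 it made up 79.3% (76.8 to 81.5). In scarb1+ sox5+ cells of run 1 slc2a15b made up 45.8% of 7023 UMIs and slc2a11b 40.5%. In GPNMB+ pnp4a+ cells of run 1, slc2a15a made up 65.2% of 155 UMIs and SLC2A9 21.9%. The 24 Slc2 UMIs of pmela+ cells of run 2 were 62.5% slc2a11b and 37.5% slc2a15a. Keratinocyte-like cells differed from all of these, with 47.7% slc2a2 and 35.1% slc2a8 among 740 UMIs of run 1 and 57.5% slc2a2 among 153 UMIs of run 2. The family's summed level was 340 and 448 CPM in KIRREL3+ cells, 681 CPM in scarb1+ sox5+ cells and 2029 CPM in GPNMB+ pnp4a+ cells of run 1, against 84.2 and 55.2 CPM in keratinocyte-like cells.

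**Figure D2:**
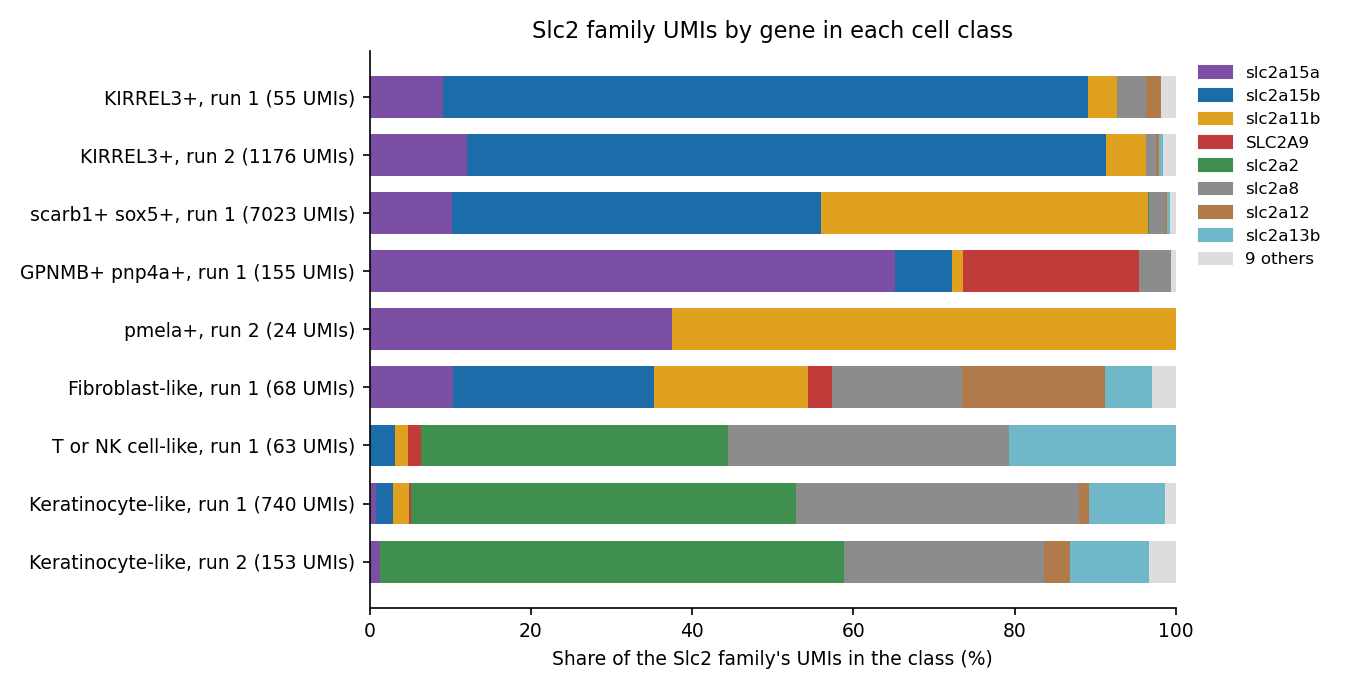
Share (%) of the UMIs of all 17 Slc2 genes that each gene took in a class sum, 1 bar per class and run, with the number of UMIs beside it. Pigment classes are filled by slc2a15a, slc2a15b, slc2a11b and SLC2A9, and keratinocyte-like cells by slc2a2 (47.7% and 57.5%) and slc2a8.

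Detection per cell went with depth for some members and classes and not for others. KIRREL3+ cells held slc2a15b in 12 of 25 cells of run 1 (48%) and in 200 of 217 of run 2 (92.2%), at medians of 6152 and 11782 UMIs per cell. The 12 cells of run 1 with slc2a15b had a median of 9214 UMIs, against 3340 UMIs in the 13 without it. For SLC2A9 in GPNMB+ pnp4a+ cells of run 1 the order was the other way. The 17 cells with it had a median of 1879 UMIs, against 3736 UMIs in the 12 without it. In scarb1+ sox5+ cells of run 1 slc2a15b was found in 63.2% of cells and slc2a11b in 54.7%, at a median of 4348 UMIs. Keratinocyte-like cells of run 1, at a median of 8365 UMIs, held slc2a15b in 0.775%, slc2a11b in 1.44% and slc2a15a in 0.664% of cells. When every cell was thinned to 2000 UMIs, slc2a15b was found in 20% (5.73 to 43.7) of 20 KIRREL3+ cells of run 1, 50.8% (43.6 to 57.9) of 199 of run 2 and 41.5% (39.3 to 43.8) of 1871 scarb1+ sox5+ cells, leaving out 5, 18 and 351 shallower cells. The order of the classes for slc2a11b held at equal depth, with 0 of 20 and 7.54% of KIRREL3+ cells against 36.2% of scarb1+ sox5+ cells. For slc2a15a, thinned KIRREL3+ cells of run 2 (12.6%) and scarb1+ sox5+ cells (12.5%) held almost equal shares, while unthinned shares were 38.2% and 25.3%. All 18 GPNMB+ pnp4a+ cells deep enough to be thinned still held slc2a15a, and 6 of them held SLC2A9.

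**Figure D3:**
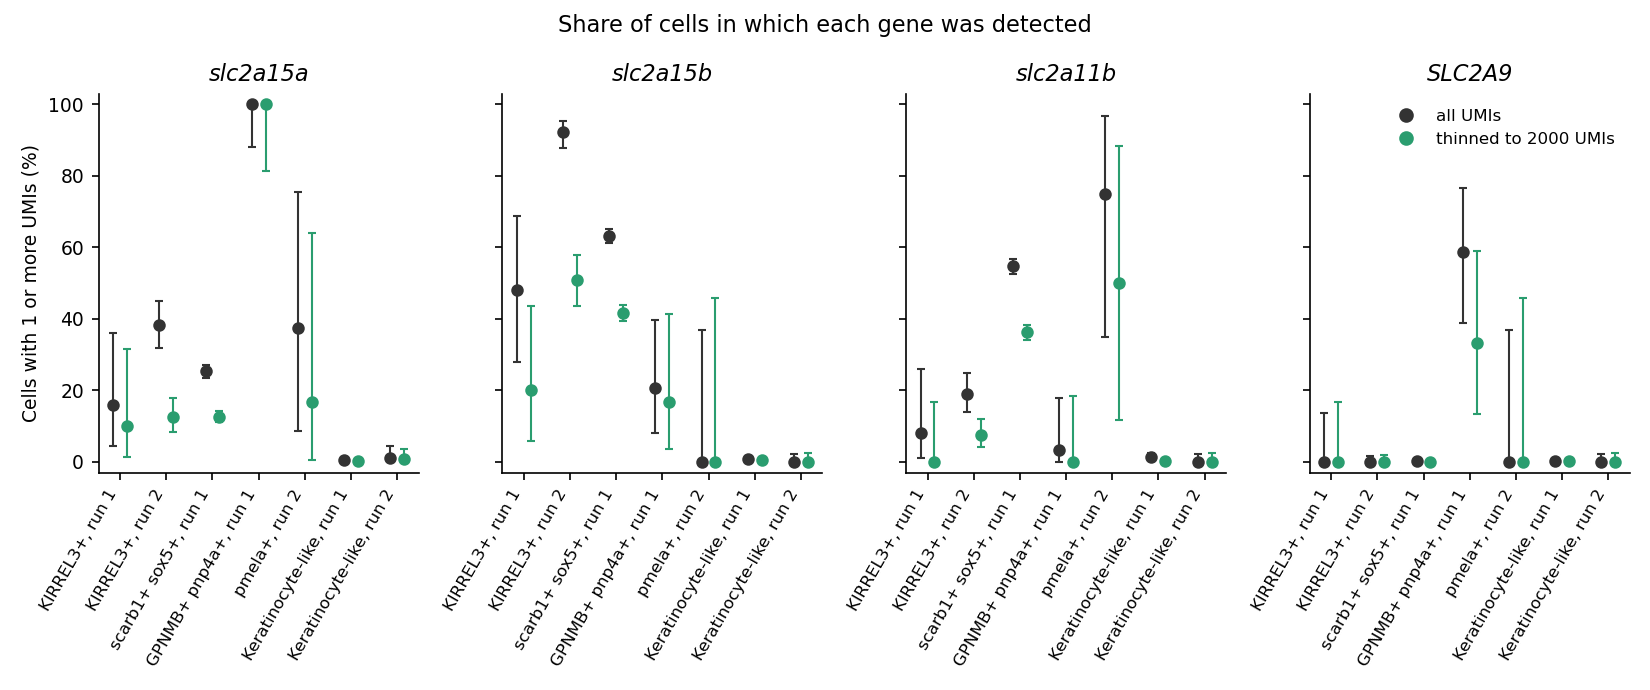
Share of cells (%) with at least 1 UMI of each gene in the pigment classes and keratinocyte-like cells, with all UMIs (black) and after thinning to 2000 UMIs per cell (green), and exact 95% binomial intervals. For slc2a15b, KIRREL3+ cells of run 2 went down to 50.8% when thinned and scarb1+ sox5+ cells to 41.5%.

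Counts per cell were low in most cells. In KIRREL3+ cells of run 2 slc2a15b ran from 0 to 27 UMIs with a median of 4, and 79.7% held 2 or more. In scarb1+ sox5+ cells of run 1 it ran from 0 to 13 UMIs with a median of 1, and slc2a11b from 0 to 33 UMIs with a median of 1. SLC2A9 ran from 0 to 6 UMIs in GPNMB+ pnp4a+ cells of run 1, where 8 of 29 cells held 2 or more.

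Several members were often found in the same cell. Of 217 KIRREL3+ cells of run 2, 100 held slc2a15b alone, 60 held slc2a15a with slc2a15b, 20 held slc2a15b with slc2a11b, 20 held all of slc2a15a, slc2a15b and slc2a11b, and 14 held none of the 4. In run 1, 12 of 25 KIRREL3+ cells held none. Of 2222 scarb1+ sox5+ cells of run 1, 555 held slc2a15b with slc2a11b, 459 slc2a15b alone, 282 slc2a11b alone, 285 those 2 with slc2a15a, and 362 none. Of 29 GPNMB+ pnp4a+ cells of run 1, 14 held slc2a15a with SLC2A9, 9 slc2a15a alone and 3 both of these with slc2a15b. Among pigment cells all 4 genes were found together in 2, both in the scarb1+ sox5+ class.

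**Figure D4:**
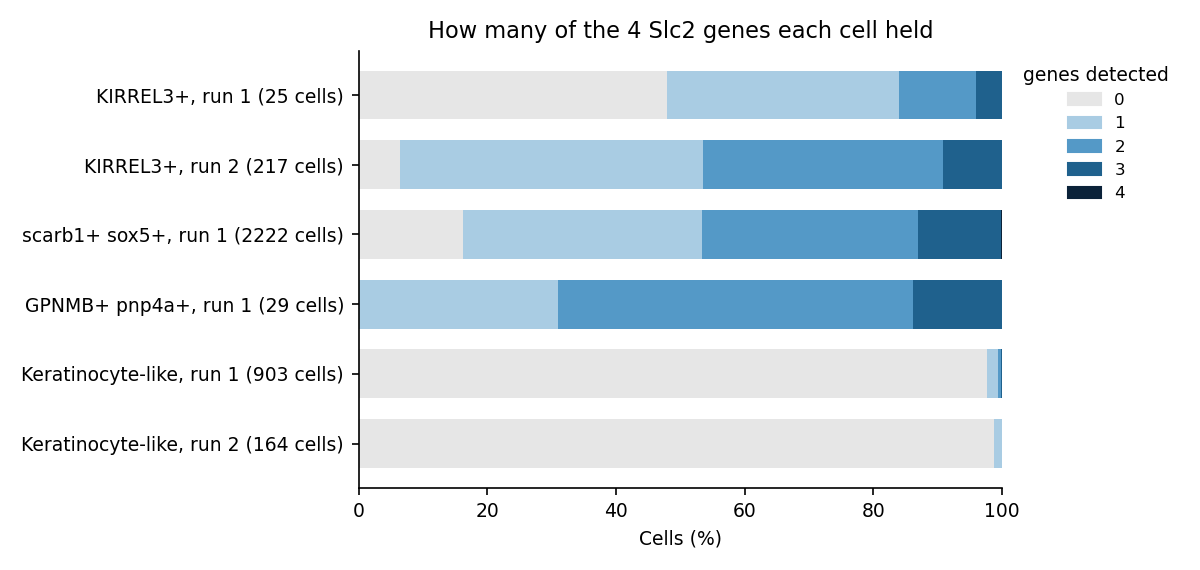
Share of cells (%) of each class and run that held 0, 1, 2, 3 or 4 of the genes slc2a15a, slc2a15b, slc2a11b and SLC2A9, with all UMIs. Every GPNMB+ pnp4a+ cell held at least 1, whereas 97.7% of keratinocyte-like cells of run 1 held 0.

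In KIRREL3+ cells of run 2, slc2a15b was found in 80 of 83 cells with slc2a15a (96.4%) and in 120 of 134 cells without it (89.6%), at medians of 13613 and 10476 UMIs per cell. At 2000 UMIs per cell these shares were 72% of 25 cells with slc2a15a and 47.7% of 174 cells without it. In scarb1+ sox5+ cells of run 1, slc2a11b was found in 60.04% of the 1404 cells with slc2a15b and in 45.5% of the 818 without it, at medians of 4867 and 3719 UMIs. At equal depth the shares were 39.1% of cells with slc2a15b and 34.1% of cells without it, a narrower gap than with all UMIs. No test was made over cells, since cells of 1 run are not replicates.

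The scarb1+ sox5+ clusters differed in level more than counting error allows. In run 1, slc2a15b stood at 493 CPM (454 to 535) in cluster 6 and at 491 CPM (444 to 542) in cluster 11, at 318 CPM in cluster 0, 278 CPM in cluster 1, 270 CPM in cluster 9 and 166 CPM (147 to 187) in cluster 3. The ratio of cluster 6 to cluster 3 was 2.96 (2.56 to 3.43), and that of cluster 11 to cluster 6 was 0.996 (0.875 to 1.13), which holds equal levels. For slc2a15a the same clusters 6 and 3 were the ends, at 108 CPM (90.3 to 129) and 37.7 CPM (29.0 to 48.3). The gene slc2a11b varied less, with 342 CPM (303 to 384) in cluster 11, 319 CPM in cluster 0 and 314 CPM in cluster 6, and 221 to 247 CPM in clusters 1, 3 and 9. Of the UMIs of slc2a15b and slc2a11b together, slc2a15b took 61.1% (58.0 to 64.2) in cluster 6 and 43.0% (39.1 to 46.9) in cluster 3. The class genes scarb1 and sox5 were also higher in clusters 6 and 11 than in cluster 3. The scavenger receptor gene scarb1 stood at 2897 and 2569 CPM in clusters 6 and 11, against 950 CPM in cluster 3, and the transcription factor gene sox5 at 1172 and 1302 CPM, against 514 CPM. The receptor gene csf1ra, a xanthophore marker, followed slc2a15b in part only. It too was highest in cluster 6, at 799 CPM. In cluster 11 it stood at 457 CPM, under 671 CPM in cluster 1 and 664 CPM in cluster 9. Clusters 3 and 0 held 415 and 385 CPM. Median depth was 3048, 3924 and 4156 UMIs per cell in clusters 6, 11 and 3. The part of cell state or free RNA in these differences was not tested.

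**Figure D5:**
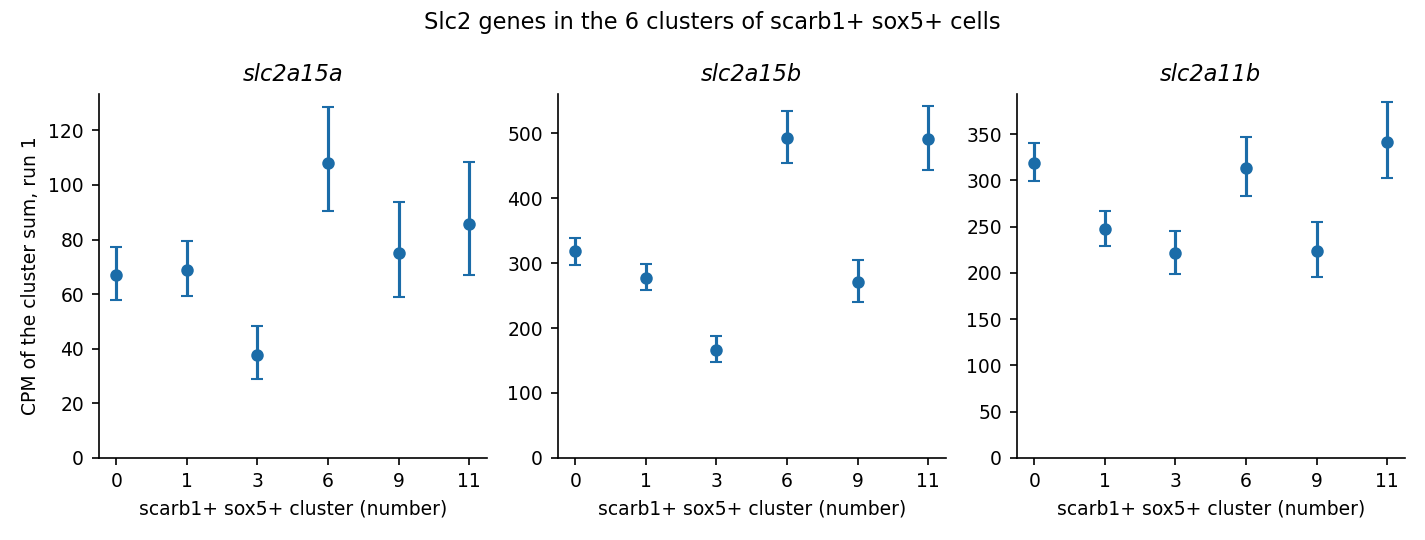
CPM of slc2a15a, slc2a15b and slc2a11b in the 6 scarb1+ sox5+ clusters of run 1, 1 point per cluster sum with its exact 95% Poisson interval. Cluster 3 was lowest for slc2a15a and slc2a15b, at 37.7 and 166 CPM, and clusters 6 and 11 were highest for slc2a15b, at 493 and 491 CPM.

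The pmela+ cells held 3 to 93 pmela UMIs. Of the 4 deepest, 3 held both slc2a15a and slc2a11b. None of the 10 held slc2a15b or SLC2A9. Of the 8 such cells of run 2, 1 held scarb1 (1 UMI), 1 held sox5 (1 UMI) and 3 held pnp4a (5 UMIs in all). The source of slc2a11b and slc2a15a in these cells was not tested.

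In the other named classes the members were found in few cells, but not always at lower levels than in KIRREL3+ cells. The 20 endothelial-like cells of run 1 held slc2a11b at 31.5 CPM (8.59 to 80.7, from 4 UMIs). KIRREL3+ cells held 12.4 and 22.5 CPM, and the intervals overlapped. Endothelial-like slc2a15a stood at 23.6 CPM (4.87 to 69.1, from 3 UMIs), beside 30.9 and 54.1 CPM, also with overlap. For slc2a15b it was 47.3 CPM (from 6 UMIs in 2 cells, 1 of which held 5), beside 272 and 355 CPM. The 5 endothelial-like cells of run 2 held 0 UMIs of all 4. SLC2A9 was not rare everywhere outside the pigment classes, since 6 and 42 of its 100 UMIs lay in the 9 and 6 cells of an unnamed cluster led by fabp6, against 34 in GPNMB+ pnp4a+ cells of run 1. Fibroblast-like cells of run 1 held slc2a15b at 17.5 CPM (10.2 to 28.0), slc2a11b at 13.4 CPM, slc2a15a at 7.19 CPM and SLC2A9 at 2.05 CPM, and the 33 fibroblast-like cells of run 2 held 0 UMIs of all 4. Of the 13 fibroblast-like cells of run 1 with slc2a15b, 13 also held KIRREL3, scarb1, GPNMB or pmela, against 14 of the 254 without it (5.51%). Their median depths were 4090 and 2681 UMIs. In keratinocyte-like cells of run 1, 8 of the 21 cells with any member held such a gene, against 1.36% of the 882 without one. By member these were 5 of 7 cells with slc2a15b, 4 of 6 with slc2a15a, 5 of 13 with slc2a11b and 0 of 2 with SLC2A9, and in run 2 they were 0 of 2 cells. Most keratinocyte-like cells with a member thus held none of these class genes. In endothelial-like cells of run 1, the 4 of 20 cells with a member included 3 with a pigment class gene, against 4 of the 16 without a member, and in run 2, 3 of 5 cells held such a gene with no member. In these cells the gene was scarb1, found in 35% and 60% of cells. In run 1 it was held by 2 of 2 cells with slc2a15b, 3 of 3 with slc2a11b and 1 of 2 with slc2a15a. Median depths were 11087 UMIs with slc2a15b and 14425 UMIs with slc2a11b, against 3799 and 3738 UMIs without them. Whether scarb1 marks a pigment cell there was not tested. T or NK cell-like cells of run 1 held 0 to 2 UMIs of each member in 580 cells, and osteoblast-like cells held 0 UMIs of all 4 in 37 cells. Of 6 GPNMB+ pnp4a+ cells of run 1 with slc2a15b, 3 held KIRREL3, scarb1 or pmela, against 1 of 23 without it, and the 1 GPNMB+ pnp4a+ cell of run 2 held 12 KIRREL3 UMIs beside its 4 slc2a15b UMIs. The part of mixed droplets in these counts was not tested.

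Apart from unnamed clusters, only 4 classes had 10 or more cells in both runs. Unnamed clusters 12 (146 and 39 cells) and 15 (68 and 14 cells) had as many but were left out. UMI sums of KIRREL3+, fibroblast-like, T or NK cell-like and keratinocyte-like cells entered a test across 9894 features, 8 sums in all. Each class was compared with the mean of the other 3 (edgeR's quasi-likelihood test with the run as a block), with p-values adjusted over all features by the Benjamini-Hochberg method. A call needed an adjusted p under 0.05 and a log2 fold change of at least 1 in size. Of 7 Slc2 genes tested, 3 were higher in KIRREL3+ cells, as were 16.1% of all features, and 0 were lower, as were 12% of all features. The 3 passed the filter on low counts, 7.48 CPM in at least 2 sums, through both KIRREL3+ sums, with 0 or 1 of the other 6 sums at that level. Their count is therefore a description and supports nothing beyond each gene's own values. Those 3 were the members slc2a15b (log2 fold change 6.69, SE 0.48, adjusted p = 1.7e-41, edgeR), slc2a15a (5.58, SE 0.84, adjusted p = 6.9e-10) and slc2a11b (3.55, SE 0.83, adjusted p = 0.000151). Each was higher in KIRREL3+ cells than in each of the 3 other classes in run 2, and slc2a15b and slc2a15a also in run 1, where slc2a11b stood at 12.4 CPM in KIRREL3+ cells and at 13.4 CPM in fibroblast-like cells. Without the KIRREL3+ sum of run 2, slc2a11b fell under the threshold (log2 fold change 1.61, adjusted p = 0.69, edgeR). By DESeq2's Wald test its adjusted p was 0.13. Several of the other sums held 0 UMIs, so the sizes depend on the small count that edgeR adds. SLC2A9 was too low in these classes to be tested.

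The other Slc2 genes differed in where they lay. SLC2A13 was too low to be tested and was named after its values were seen. It stood at 6.48 CPM in KIRREL3+ cells of run 2 (17 UMIs in 9 of 217 cells) and 4.37 CPM in scarb1+ sox5+ cells of run 1. Keratinocyte-like cells of the same runs held 1.44 and 1.02 CPM. The ratios were 4.49 (1.47 to 18.4) and 4.26 (2.06 to 9.92), past 4-fold higher, as were 28.2% and 28.7% of features. KIRREL3+ cells of run 1 held 1 UMI, a ratio of 6.04 (0.138 to 43.6), which holds equal levels. GPNMB+ pnp4a+ cells of run 1 also held 1 UMI and pmela+ cells of run 2 held 0. In keratinocyte-like cells 3 of 7 were higher, as were 27.9% of features, and 1, slc2a15b, was lower, as were 12.8%. The glucose carrier gene slc2a2 (GLUT2 in mammals) stood at 40.2 and 31.7 CPM in keratinocyte-like cells of runs 1 and 2. KIRREL3+ and fibroblast-like cells held 0 UMIs in both runs, and T or NK cell-like cells held 14.1 and 16.4 CPM. Against the mean of these 3 classes its log2 fold change was 6.98 (SE 0.74, adjusted p = 9.7e-20, edgeR). That size depends on the sums with 0 UMIs. The gene slc2a8 stood at 29.6 and 13.7 CPM in keratinocyte-like cells (1.84, SE 0.46, adjusted p = 0.000266) and slc2a13b at 7.96 and 5.41 CPM (1.48, SE 0.59, adjusted p = 0.0302). The slc2a13b gene passed the filter on low counts, 7.48 CPM, through 2 sums, 0 of them of KIRREL3+ cells. The keratinocyte-like sum of run 2 was not among them. A fibroblast-like or T or NK cell-like sum thus stood above that keratinocyte-like sum. By DESeq2 only slc2a2 was called higher in keratinocyte-like cells. T or NK cell-like cells had slc2a2 higher (14.1 CPM in run 1, from 24 UMIs), as were 15.7% of features. It was found in 3.97% of these cells and in 24.4% of keratinocyte-like cells of run 1, and the part of free RNA was not tested. Of the 7 genes, slc2a15a, slc2a15b and slc2a11b were lower in T or NK cell-like cells, as were 21.3% of features, and none of the 3 was called by DESeq2 or without the sum of run 1. These lower calls, and that of slc2a15b in keratinocyte-like cells, are set against a mean that holds the KIRREL3+ class and restate its level. The T or NK cell-like sums held 0 to 1.18 CPM of each of the 3 genes, beside 0 to 1.71 CPM in the keratinocyte-like sums. In fibroblast-like cells slc2a12 was higher (12.3 CPM in run 1, from 12 UMIs), as were 18.2% of features, and 0 were lower, as were 7.02%. The slc2a12 call was lost without the sum of run 1. This gene passed the filter on low counts, 7.48 CPM, through 2 sums, 0 of them of KIRREL3+ cells. The keratinocyte-like sums were not among them, at 1.02 and 1.80 CPM. Its call is therefore a description and supports nothing beyond the gene's own values. The 4 comparisons share the same 8 sums, so a gene high in 1 class weighs on the others. Of the 13 genes beside the members, 3 had 0 UMIs in all cells, 4 had 1 to 10 and 6 had more. One of them was above 50 CPM in a named class, slc2a8 at 78.6 CPM in GPNMB+ pnp4a+ cells of run 1 (28.8 to 171, from 6 UMIs).

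Genes of hexose phosphorylation and of urate handling were set beside the transporters. Of the 5 features of hexose phosphorylation, which are hexokinases and glucokinase, 0 were above 50 CPM in a pigment class of 10 or more cells. Of 6 genes of urate formation and breakdown, 2 were above 50 CPM in such a class. XDH, which encodes the xanthine dehydrogenase that makes urate, stood at 0 UMIs and 5.34 CPM in KIRREL3+ cells, at 59.1 CPM in scarb1+ sox5+ cells and at 0 UMIs in GPNMB+ pnp4a+ cells, which hold SLC2A9. The gene uraha, of a hydrolase downstream of urate oxidation, stood at 1764 and 2139 CPM in KIRREL3+ cells, 882 CPM in scarb1+ sox5+ cells and 26.2 CPM in GPNMB+ pnp4a+ cells. Both served as markers for naming classes. The urate oxidase gene uox had 0 UMIs in KIRREL3+ and GPNMB+ pnp4a+ cells and 4 in scarb1+ sox5+ cells. For XDH and uox alike, a count of 0 with 3 UMIs as the floor allows up to 39.3 CPM in GPNMB+ pnp4a+ cells of run 1. In KIRREL3+ cells of run 1 it allows up to 18.6 CPM, and for uox in those of run 2 up to 1.14 CPM. These counts of 0 therefore do not show that the genes are absent. Of 4 other urate carriers found, abcg2a alone was above 50 CPM, at 91.7 CPM (36.8 to 189, from 7 UMIs) in GPNMB+ pnp4a+ cells against 12.4 and 4.57 CPM in KIRREL3+ cells.

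The genes whose levels ran most like those of each member were listed by Pearson's r of log2(CPM + 10), as a description. The list was made over 5536 features and 13 class sums of 10 or more cells, with unnamed clusters left out. For slc2a15b they were tmem182a (r = 0.989), the synuclein gene sncga (0.988), GPR143, a receptor of pigment organelles (0.982), the phosphodiesterase gene pde8a (0.982) and the protease gene bace2 (0.974). For slc2a15a they were TMEM245 (0.979), slco1c1 (0.978), STK32C (0.967), qki2 (0.964) and inpp4aa (0.951). For slc2a11b they were the protocadherin gene pcdh10a (0.964), the paired box gene pax3b (0.953), oprl1 (0.949), scly (0.943) and dvl1b (0.937). For SLC2A9 they were GPNMB, slc6a4a, KCND3, tm4sf21a and otos, at r of 0.9988 to 0.9997. Those values rest on the single GPNMB+ pnp4a+ sum, the only 1 of the 13 in which these genes were high. GPNMB is also a class gene of that class, so its level there was set by the choice of class. The unnamed cluster led by fabp6, not among the 13, held SLC2A9 at 49.6 and 296 CPM and 0 UMIs of GPNMB. The genes listed for slc2a15a were also highest in that sum among the pigment sums, at 52.4 to 144 CPM. Those listed for slc2a11b were highest in the single scarb1+ sox5+ sum, at 78.3 to 318 CPM. The r values of these 2 lists therefore lean on 1 sum each. The sums share libraries, so no test was made.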

How the data were processed

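The authors deposited UMI counts per gene and cell barcode for each run, as whole-number counts that are not normalized. Per the submitters' processing notes, Cell Ranger 7.1.0 made them. The genome build and the annotation used are not stated there, so no coordinates or sequences are printed. Reads shared by slc2a15a and slc2a15b would make their split uncertain. Barcodes were kept with at least 500 UMIs, 300 genes and at most 20% mitochondrial UMIs. Scrublet's automatic threshold called 3 and 1 doublets, under 0.5%, so the top 4% of scores were removed, 156 and 21 cells. Cells were scaled to 10000 counts and clustered on 2000 variable genes, 30 components and 15 neighbours with the Leiden algorithm at resolution 1 (scanpy 1.11.5, leidenalg 0.10.2), without the Slc2 genes. Of 222 markers for 21 classes, 142 were matched. A name needed at least 3 markers found in at least 10% of a cluster's cells and at 2-fold the median of clusters, and 5 clusters outside the pigment classes stayed unnamed. The rule that kept a cluster led by fabp6, apoa1b and rbp2a from the keratinocyte-like name was set after the clusters were seen. The members, the gene lists and the tests were chosen with earlier results of these data known. Genes named in the text are the 4 members, other Slc2 genes above 50 CPM or called, list genes above 50 CPM in a pigment class, the class genes, and the 5 genes most like each member. The values of uox and csf1ra and the choice of pigment class genes searched for in other cells came after the values were seen.

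Sums of at least 10 cells per run and class were tested with edgeR 4.0.16 under R 4.3.3, without those of unnamed clusters. The fit used TMM scaling, filterByExpr and the run as a block, since sums of 1 run come from 1 library. The fit has 3 residual degrees of freedom, and edgeR borrowed each gene's spread wholly from the trend across genes. An SE is the log2 fold change divided by the square root of the F statistic. On simulated counts for 8307 genes with 200 changed, the KIRREL3+ comparison recovered 80% of 4-fold and 100% of 16-fold changes, 0 in the wrong direction, and called 6 unchanged genes. The changed genes were drawn from features with many UMIs only. Apart from these changes, the simulated classes shared 1 profile and 1 fixed spread, unlike the real classes. These rates therefore do not cover genes with few UMIs, such as slc2a11b. Other pigment and named classes have at most 1 such sum. They and the unnamed clusters are given with exact intervals and no test. Features entered a 1-sum comparison with at least 10 UMIs in both sums together, and a 4-fold change needed more than 3 UMIs in the higher sum. Thinning drew 2000 UMIs, or 1000, from each cell without replacement. PCR and capture are not covered by the intervals. Alternatives were DESeq2 1.42.0, its size factors, no filter, no block, leaving out a sum, Leiden resolutions 0.5 and 2, doublets kept, a minimum of 1000 UMIs, classes from class genes alone, Slc2 genes allowed in clustering and a pmela minimum of 1 UMI.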

Additional observations from a re-analysis of the deposited data

Results flagged for a closer look

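SLC2A9 was also found outside the classes compared, in an unnamed cluster of 15 cells led by fabp6, an intestinal fatty acid binding protein in mammals. It stood at 49.6 CPM (18.2 to 108, 6 UMIs in 5 of 9 cells) in run 1 and at 296 CPM (213 to 400, 42 UMIs in 4 of 6 cells) in run 2, against 0.228 CPM and 0 UMIs in keratinocyte-like cells. Median depths were 13887 and 22402 UMIs per cell there, against 8365 and 15293. This cluster had 0 UMIs of slc2a15a, slc2a15b, slc2a11b, KIRREL3, GPNMB and pmela in both runs. Of the other class genes it held sox5 at 240 CPM (8 of 9 cells) and 127 CPM (6 of 6 cells), 1 and 6 UMIs of scarb1, and 1 and 0 UMIs of pnp4a. It also held abcg2a at 595 and 591 CPM and XDH at 141 and 98.5 CPM. The source of these cells was not tested.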

How the results depend on the processing

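With no replicate block, the KIRREL3+ comparison called 3 Slc2 genes higher and 0 lower, and gave log2 fold changes of 6.50 (slc2a15b), 5.75 (slc2a15a) and 2.99 (slc2a11b). The block changed 2 Slc2 calls, both in T or NK cell-like cells (slc2a11b, lost at -3.17, and slc2a12, gained at -5.55). When each KIRREL3+ sum was left out in turn, slc2a15b ran between 5.62 and 12.29, slc2a15a between 4.70 and 6.77 and slc2a11b between 1.61 and 8.59, all genes called higher between 634 and 1549 and lower between 390 and 858, beside 1588 and 1189 with both sums. The lone sum is assumed to vary like the other classes. Leaving out a sum gave 0 to 1 Slc2 genes higher in fibroblast-like cells, 1 to 2 in keratinocyte-like cells, and 0 to 3 lower in T or NK cell-like cells, the low values without run 1. With DESeq2's Wald test slc2a11b in KIRREL3+ cells (3.84) was not called, 1 Slc2 gene was lower there, 1 was higher in keratinocyte-like cells and 0 were lower in T or NK cell-like cells. With doublets kept, 5 Slc2 genes passed the filter on low counts in place of 7. Of these 5, 0 were higher in fibroblast-like cells, and 3, 1 and 1 were lower in keratinocyte-like, KIRREL3+ and T or NK cell-like cells. Without cluster 0, slc2a11b in scarb1+ sox5+ cells stood at 259 CPM and in 51.2% of cells, and slc2a15b in 61.1% of cells. That alternative was chosen after seeing the data. Thinned to 2000 and 1000 UMIs, detection was 50.8% and 35.3% for slc2a15b in KIRREL3+ cells of run 2, 41.5% and 27.2% for slc2a15b and 36.2% and 20.4% for slc2a11b in scarb1+ sox5+ cells. In GPNMB+ pnp4a+ cells of run 1 SLC2A9 was found in 33.3% of 18 cells at 2000 UMIs and 43.5% of 23 cells at 1000 UMIs. At these depths slc2a15a was found in 100% and 60.9%. Cells with both genes were, at 2000 UMIs, 1000 UMIs and a minimum of 2 UMIs per gene, 9.05%, 5.58% and 18.0% for slc2a15a with slc2a15b in KIRREL3+ cells of run 2, 16.2%, 5.94% and 14.9% for slc2a15b with slc2a11b in scarb1+ sox5+ cells, and 33.3%, 30.4% and 27.6% for slc2a15a with SLC2A9 in GPNMB+ pnp4a+ cells. Fewer UMIs per cell tend to lower such shares, but the cells kept also differ between the 2 depths. The cause of the other changes was not tested. Of the values for single genes and pairs not given here, 308 kept their call or stayed within their spread, 50 moved, 6 became called and 13 were no longer called. No log2 fold change that was called, in the main fit or in an alternative, changed its sign. Levels, detection and co-detection were checked for size only, not for the order of classes. That order was not always kept. With all UMIs slc2a15a was found in 38.2% of KIRREL3+ cells of run 2 and 25.3% of scarb1+ sox5+ cells of run 1. At 1000 UMIs these shares were 7.91% and 8.02%. The small number of GPNMB+ pnp4a+ and pmela+ cells limits what can be said of them.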

Other observations

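Another member of the family was found in an unnamed cluster of 82 cells. That cluster met 3 markers of B cells and 5 of macrophages, and held the neutrophil marker mmp9 among its 10 leading genes. SLC2A6, a hexose carrier of the lysosome in mammals, stood there at 55.1 CPM (26.4 to 101, 10 UMIs in 6 of 68 cells) in run 1 and at 40.9 CPM (8.43 to 119, 3 UMIs in 2 of 14 cells) in run 2. Of the 15 SLC2A6 UMIs in all cells, 13 lay in this cluster.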
